A study of Homo sapiens with 12 samples.

Results

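The endothelin genes measured here were EDN1 and EDN2, which encode the precursors of the peptide ligands endothelin-1 and endothelin-2, ECE1 and ECE2, which encode the endothelin-converting enzymes, and EDNRA and EDNRB, which encode the endothelin receptors. They were picked by gene symbol, with earlier results of these data known, and made up 6 of the 19907 symbols in the files. All 6 had enough reads to be tested, among 18579 genes in all.

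Endothelins are short secreted peptides. A furin-type protease first cuts the precursor into an inactive intermediate, and an endothelin-converting enzyme then cuts that intermediate into the active peptide. Both receptors are G protein-coupled and act largely through phospholipase C and calcium. EDNRA prefers endothelin-1 and endothelin-2, whereas EDNRB binds all endothelins about equally. Endothelin-1 is best known as a vasoconstrictor released by endothelial cells, but carcinoma cells make it too, and EDN1 is a known target of TGFβ signalling through SMAD proteins and AP-1.

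Transcripts were sequenced from a triple-negative breast cancer line, MDA-MB-231, in 4 groups of 3 libraries. The wt-GR cells were a single-cell clone that had gone through CRISPR editing with the glucocorticoid receptor gene NR3C1 left unchanged. The S134A-GR cells were a single-cell clone, clone #1, in which the codon for Ser134 of NR3C1 was replaced by one for alanine on both alleles, together with a silent change at the guide's PAM. The line comparison is therefore 1 clone against 1 clone, and the mutation and other differences between the clones cannot be told apart. Cells of both lines were serum-starved for 18 h in medium with 1% charcoal-stripped serum, followed by 6 h with the cytokine TGFβ1 at 10 ng/mL or with vehicle alone. The labels do not say that the 3 libraries of a group came from separate cultures, so p-values measure the spread between these libraries, which may be technical.

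The recovered gene counts summed to 56362036 to 129832227 per library, each above the average number of reads per sample that the paper states. How the mates of a pair were counted is not given, so the reads here may not stand for separate fragments. A level of 3 reads, taken as the limit of detection for counting error only, was 2.15 to 4.89 normalized counts. The breast line markers VIM, CD44, EGFR and KRT18 summed to between 513200 and 639435 normalized counts in every library, and the oestrogen receptor gene ESR1 averaged at most 6.02 in any group. Of the other genes listed as low in this line, CDH1 averaged at most 9.37 in any group, but ERBB2 averaged 7734 to 10494. EPCAM, also listed as low, averaged 1024 in wt-GR vehicle and 1018 in wt-GR TGFβ1. In S134A-GR it averaged 378 under vehicle and 339 under TGFβ1. PGR, also on that list, was not analysed here. NR3C1 averaged 11771 ± 1186 (SD, n = 3) in wt-GR vehicle and 8815 ± 259 in S134A-GR vehicle, and gene-level counts do not show the edited codon. By limma it was lower in S134A-GR under vehicle (log2 -0.41, adjusted p = 0.00012) and under TGFβ1 (-0.31, adjusted p = 0.00134). For the protein, the paper reports equal total receptor in its lines by Western blot. The TGFβ1 target SMAD7 rose in both lines (log2 fold change 1.19 in wt-GR, adjusted p = 1.49e-08, and 1.32 in S134A-GR, adjusted p = 6.47e-09).

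The sequences that precede the transcript starts of both ligand genes are shown because these genes had the largest changes of the 6 under TGFβ1, in opposite directions. Each run is the 250 bases upstream of the start, from RefSeq on GRCh38.p14, on the strand of the gene. EDN1 lies on the plus strand of chromosome 6 (chr6:12290361-12297194, hg38, GENCODE v44) and its window is chr6:12290111-12290360. EDN2 lies on the minus strand of chromosome 1 (chr1:41478775-41484683) and its window is chr1:41484684-41484933. Capitals mark matches to any of 7 motifs on either strand.
EDN1: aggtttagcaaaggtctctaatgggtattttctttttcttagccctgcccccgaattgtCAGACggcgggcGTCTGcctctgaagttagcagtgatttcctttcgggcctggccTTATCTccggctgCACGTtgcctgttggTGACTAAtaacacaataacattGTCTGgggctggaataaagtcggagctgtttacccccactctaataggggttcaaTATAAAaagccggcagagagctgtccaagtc
EDN2: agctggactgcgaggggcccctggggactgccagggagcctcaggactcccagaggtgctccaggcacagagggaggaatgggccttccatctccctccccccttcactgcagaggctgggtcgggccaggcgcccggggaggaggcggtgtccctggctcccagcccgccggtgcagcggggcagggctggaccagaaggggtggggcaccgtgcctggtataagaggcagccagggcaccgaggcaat

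The letters searched, with their reverse complements, were TGACTNA for AP-1, CAGAC for the SMAD element, AGATAA for the motif of the GATA factors, AGAACA for the glucocorticoid receptor half-site, ACGTG for the hypoxia response core, TATAAA for the TATA box and GGGCGG for the SP1 box. Counted back from the base before the start as -1, the EDN1 window held SMAD letters at -191, -179 and -86, GATA letters at -136, hypoxia response letters at -123, AP-1 letters at -108 and TATA box letters at -31. None of these matches overlapped another. The EDN2 window held no exact match to the 7 motifs. Near matches were not counted, such as its tataag, which differs from TATAAA in the last letter. Over 35116 RefSeq windows of the same length, 9.8% held AP-1 letters, 38% SMAD, 9.17% GATA, 12.4% the glucocorticoid receptor half-site, 18.5% the hypoxia response core, 10.7% the TATA box and 42.6% the SP1 box. A match is a description of letters, not of a bound site. The AP-1, SMAD, GATA and hypoxia response motifs belong to factors known to act on EDN1, so the search was not neutral between the genes. RefSeq gives 3 starts for EDN1, and the window shown belongs to the one that GENCODE annotates.

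**Figure D1:**
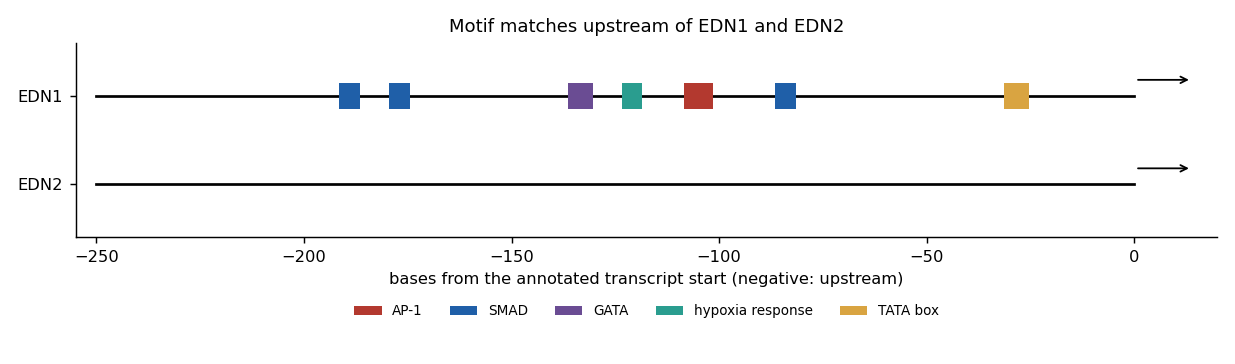
Motif matches in the 250 bases upstream of the EDN1 and EDN2 transcript starts, by distance in bases from the start, with a coloured box for each match and an arrow at the start. EDN1 had 7 exact matches, 3 of them to the SMAD element, and EDN2 had none. The AP-1, SMAD, GATA and hypoxia response motifs belong to factors known to act on EDN1. Near matches were not counted.

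The ligand genes moved in opposite directions under TGFβ1. EDN1 rose about 4-fold in both lines to nearly the same level, while EDN2 fell in both lines to a level near 10 normalized counts. The lines differed in EDN2 under vehicle, with less in S134A-GR, and not detectably in EDN1.

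EDN1 normalized counts in wt-GR were 1183, 1334 and 1415 under vehicle and 5705, 5521 and 5716 under TGFβ1. In S134A-GR they were 1338, 1274 and 1372 under vehicle and 4839, 5385 and 5525 under TGFβ1. Every TGFβ1 library lay above every vehicle library in each line, whereas the lines overlapped under both treatments. The group means were 1311 ± 118 (SD, n = 3) and 5647 ± 109 in wt-GR, a 4.31-fold rise, and 1328 ± 49.7 and 5249.9 ± 363 in S134A-GR, a 3.95-fold rise. On the log2 scale of the normalized count plus 1, the rise was 2.11 (SE 0.0652, adjusted p = 3.03e-11) in wt-GR and 1.98 (SE 0.0652, adjusted p = 7.18e-11) in S134A-GR. EDN1 had the 72nd highest fold change of the 18579 genes tested in wt-GR and the 53rd highest in S134A-GR. By edgeR it ranked 277 and 218.

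No difference in EDN1 between the lines passed the test. The log2 difference of S134A-GR from wt-GR was 0.02 under vehicle (95% interval -0.12 to 0.16, adjusted p = 0.802) and -0.11 under TGFβ1 (95% interval -0.25 to 0.03, adjusted p = 0.197). The responses differed by -0.13 (95% interval -0.33 to 0.07, adjusted p = 0.696).

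EDN2 normalized counts in wt-GR were 184, 159.6 and 185 under vehicle and 12.2, 7.32 and 11.2 under TGFβ1. In S134A-GR they were 46.2, 30.4 and 41.0 under vehicle and 8.56, 7.09 and 10.7 under TGFβ1. All vehicle libraries lay above all TGFβ1 libraries, and the S134A-GR vehicle libraries lay below all wt-GR vehicle libraries. Under TGFβ1 the lines overlapped. The TGFβ1 levels rest on 32 reads over the 3 wt-GR libraries and 31 over the 3 S134A-GR libraries, above the limit of 3 reads in each.

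Because EDN2 was already known for the difference in its response, its changes are given as a description. Whether its adjusted p passed the threshold is stated below for completeness and is not read as support. Its mean fell from 176 ± 14.5 (SD, n = 3) to 10.2 ± 2.58 in wt-GR, 17.2-fold lower, and from 39.2 ± 8.04 to 8.79 ± 1.83 in S134A-GR, 4.46-fold lower. The log2 changes were -4.003 (SE 0.271) and -2.03 (SE 0.271). With a pseudocount of 16 in place of 1 they were -2.88 and -1.15. In wt-GR this was the lowest log2 change of all genes tested with a pseudocount of 1, the 3rd lowest with 16, the 22nd lowest by DESeq2 and the 45th lowest by edgeR. In S134A-GR it was the 39th lowest with a pseudocount of 1, the 37th lowest with 16, the 261st lowest by DESeq2 and the 277th lowest by edgeR.

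The EDN2 responses differed by 1.97 on the log2 scale (95% interval 1.15 to 2.79), with the smaller fall in S134A-GR. That difference equals the line difference under TGFβ1, -0.19 (SE 0.271), less the line difference under vehicle, -2.16 (SE 0.271), where S134A-GR held 4.50-fold less EDN2. Most of it thus stood in the vehicle libraries. The response difference stayed between 1.73 and 2.10 under all 21 alternative settings, but its adjusted p was under 0.05 in only 7 of them, and in none of the 12 that leave out 1 library.

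**Figure D2:**
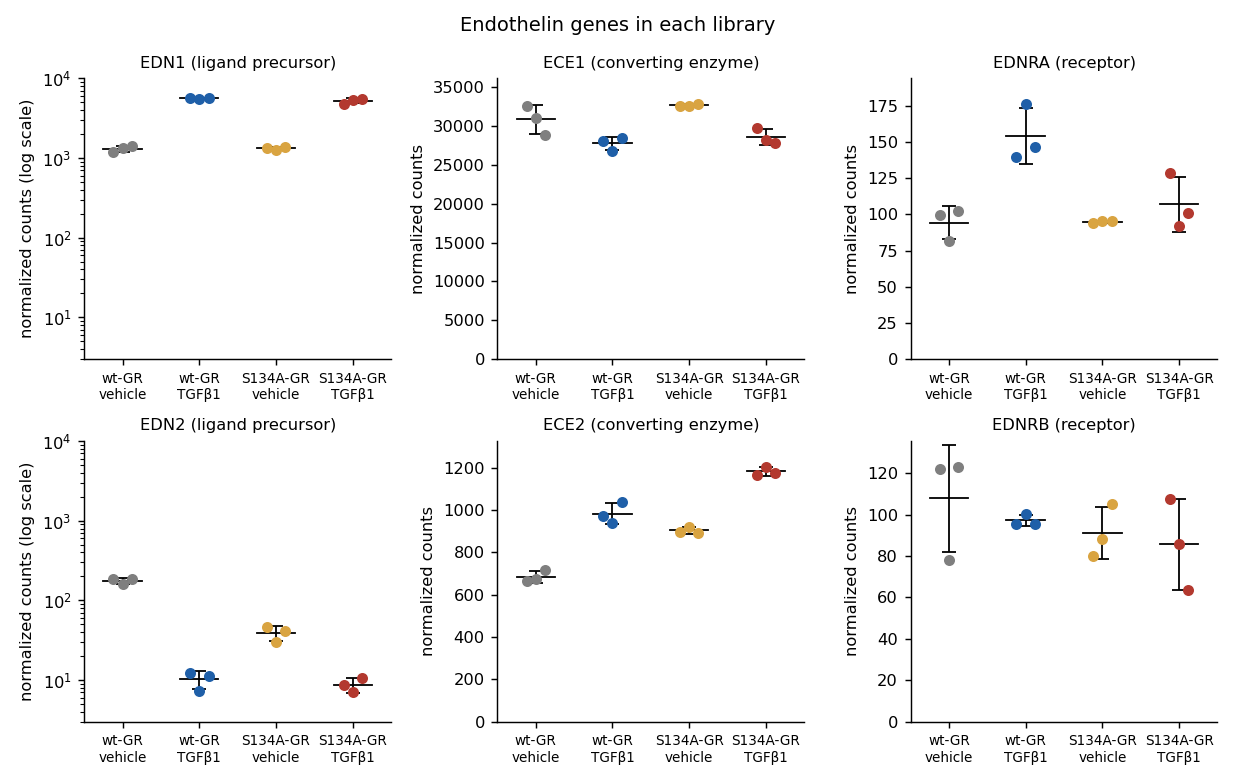
Normalized counts of the 6 endothelin genes in each of the 12 libraries, with log axes for EDN1 and EDN2 and linear axes from 0 for the others. Points are libraries, horizontal lines are group means and bars are 1 SD (n = 3). EDN1 rose from 1311 to 5647 and from 1328 to 5249.9, and EDN2 fell to 10.2 and 8.79.

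The converting enzymes changed less than the ligands. ECE1 fell slightly and ECE2 rose under TGFβ1 in both lines, and ECE2 was also higher in S134A-GR than in wt-GR under both treatments.

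ECE1 (chr1:21217247-21345572, minus strand) encodes the main converting enzyme, a membrane metalloprotease. Its normalized counts in wt-GR were 32614, 31035 and 28891 under vehicle and 28049.6, 26794 and 28465 under TGFβ1. In S134A-GR they were 32632, 32537 and 32845 under vehicle and 29766.5, 28205 and 27808 under TGFβ1. The treatments did not overlap in either line, although in wt-GR the lowest vehicle library stood close to the highest TGFβ1 library, and the lines overlapped under both treatments. The log2 change was -0.15 (SE 0.0432, adjusted p = 0.0233) in wt-GR and -0.19 (SE 0.0432, adjusted p = 0.0059) in S134A-GR. In wt-GR the adjusted p was 0.0906 with only the groups compared in the fit, and it was 0.0525 to 0.0975 without any of 4 libraries (wt-GR vehicle 1 or 2, wt-GR TGFβ1 1 or 2).

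Between the lines ECE1 differed by 0.08 under vehicle (95% interval -0.01 to 0.18, adjusted p = 0.119) and by 0.04 under TGFβ1 (95% interval -0.05 to 0.13, adjusted p = 0.457). Without wt-GR vehicle 1, the shallowest library, the vehicle difference was 0.13 with an adjusted p of 0.0233. The responses differed by -0.04 (95% interval -0.17 to 0.09, adjusted p = 0.861).

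ECE2 (chr3:184276011-184293031, plus strand) encodes a related converting enzyme that works best at acid pH. Its normalized counts in wt-GR were 665, 672 and 717 under vehicle and 972, 940.3 and 1037 under TGFβ1. In S134A-GR they were 895, 921 and 894 under vehicle and 1167, 1205 and 1174 under TGFβ1. No group pair overlapped in the 4 comparisons, so each step from wt-GR to S134A-GR and from vehicle to TGFβ1 moved every library up.

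The TGFβ1 rise of ECE2 was 0.52 (SE 0.0588, adjusted p = 1.69e-05) in wt-GR and 0.39 (SE 0.0588, adjusted p = 0.000309) in S134A-GR, 1.44-fold and 1.31-fold. The line difference was 0.40 (SE 0.0588, adjusted p = 5.32e-05) under vehicle and 0.27 (SE 0.0588, adjusted p = 0.00173) under TGFβ1, 1.32-fold and 1.20-fold. The responses differed by -0.13 (95% interval -0.31 to 0.05, adjusted p = 0.651). In GENCODE v44, 62.7% of the ECE2 exonic bases are shared with the readthrough gene EEF1AKMT4-ECE2, whose symbol was not used here, so the split of reads between the 2 genes is uncertain.

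The receptor genes were measured at low levels, between 63.7 and 176 normalized counts in every library. EDNRA rose in wt-GR under TGFβ1, and EDNRB passed the test in no comparison.

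EDNRA (chr4:147480917-147544954, plus strand) gave normalized counts in wt-GR of 99.4, 81.4 and 102 under vehicle and 140.0, 176 and 147 under TGFβ1. In S134A-GR the counts were 94.3, 95.3 and 95.3 under vehicle and 128, 92.1 and 101 under TGFβ1. The treatments did not overlap in wt-GR but did in S134A-GR, and under TGFβ1 every S134A-GR library lay below every wt-GR library. The means were 94.3 ± 11.3 (SD, n = 3) and 154 ± 19.4 in wt-GR, a 1.64-fold rise, against 94.96 ± 0.607 and 107 ± 18.9 in S134A-GR.

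The EDNRA log2 change under TGFβ1 was 0.70 (SE 0.166, adjusted p = 0.00734) in wt-GR and 0.16 (95% interval -0.20 to 0.51, adjusted p = 0.589) in S134A-GR. A difference between these responses was not shown, at -0.55 (95% interval -1.05 to -0.04) with an unadjusted p of 0.0355 and an adjusted p of 0.504 by limma. Between the lines EDNRA differed by 0.02 under vehicle (95% interval -0.34 to 0.37, adjusted p = 0.943) and by -0.53 under TGFβ1 (SE 0.166, adjusted p = 0.0163). The latter adjusted p was 0.0782 without wt-GR TGFβ1 2, 0.0728 without S134A-GR TGFβ1 2 and 0.051 without S134A-GR TGFβ1 3.

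EDNRB (chr13:77895481-77975529, minus strand) gave normalized counts in wt-GR of 122, 78.2 and 123 under vehicle and 95.5, 100.3 and 95.7 under TGFβ1. In S134A-GR the counts were 80.1, 88.2 and 105 under vehicle and 107, 86.1 and 63.7 under TGFβ1. All 4 groups overlapped. The log2 change under TGFβ1 was -0.12 (95% interval -0.59 to 0.35, adjusted p = 0.768) in wt-GR and -0.11 (95% interval -0.58 to 0.36, adjusted p = 0.804) in S134A-GR. The line difference was -0.22 under vehicle (95% interval -0.69 to 0.25, adjusted p = 0.437) and -0.21 under TGFβ1 (95% interval -0.68 to 0.26, adjusted p = 0.467). These intervals leave room for a change of EDNRB of up to about 0.69 in size.

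**Figure D3:**
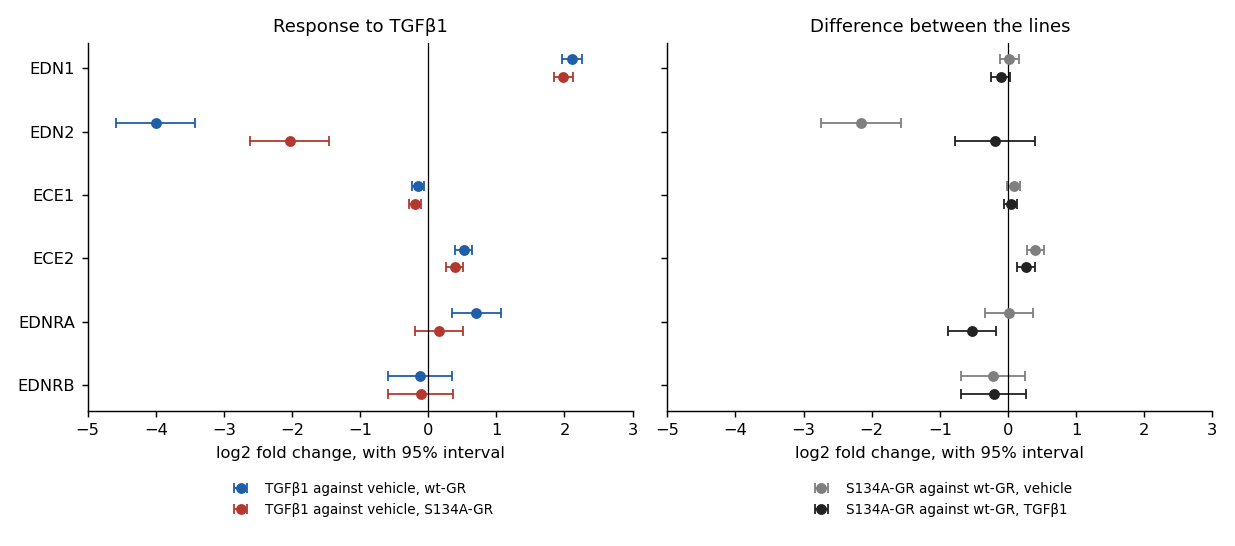
Log2 fold changes of the 6 endothelin genes with 95% intervals, for TGFβ1 against vehicle in each line (left) and S134A-GR against wt-GR under each treatment (right). EDN1 stands at 2.11 and 1.98 and EDN2 at -4.003 and -2.03 on the left, and the EDN2 vehicle difference stands at -2.16 on the right.

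In counts, 5 of the 6 genes were called under TGFβ1 in wt-GR, where 21.0% of all tested genes were called. Of these 3 were higher and 2 lower, against 11.2% and 9.82% of all genes. In S134A-GR 4 were called, against 18.7% of all genes, 2 higher and 2 lower, against 10.0% and 8.69%. Between the lines under vehicle, 2 were called, against 51.5% of all genes, with ECE2 higher and EDN2 lower, against 25.0% and 26.5%. Under TGFβ1 2 were called, against 48.8%, with ECE2 higher and EDNRA lower, against 23.1% and 25.7%. For the difference in response 0.414% of all genes were called, 0.167% positive and 0.248% negative. None of the 5 genes other than EDN2 was called for it by limma, edgeR or DESeq2, and 1 of them, EDNRA, had an unadjusted p under 0.05. EDN2 passed the threshold in the limma fit, but it was chosen for this difference, so that call is not read against these shares. EDN2 is also among the called genes in the TGFβ1 counts of each line and in the vehicle count between the lines. Since the genes were chosen with such results known, these shares are given for scale only. The groups did not overlap for 5 and 4 of the 6 genes under TGFβ1 in wt-GR and S134A-GR, against 33.9% and 35.6% of all genes, and for 2 of 6 between the lines under each treatment, against 57.3% and 55.6%. In bulk RNA, fewer cells that make a transcript and less transcript per cell cannot be told apart.

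Levels of different genes were compared as normalized counts per kilobase of annotated exon. In wt-GR vehicle ECE1 stood highest at 4221 ± 256 per kilobase (SD, n = 3), followed by EDN1 at 644 ± 57.9, ECE2 at 145 ± 5.98, EDN2 at 107 ± 8.81, EDNRA at 22.3 ± 2.66 and EDNRB at 19.2 ± 4.58. The receptor genes did not differ from each other beyond their spread there. In S134A-GR vehicle the order was the same, but EDN2 at 23.8 ± 4.87 per kilobase no longer stood apart from EDNRA at 22.4 ± 0.143. Under TGFβ1 EDN1 rose to 2775 ± 53.6 per kilobase in wt-GR and 2579.8 ± 178 in S134A-GR, still below ECE1 at 3799.9 ± 119 and 3913 ± 142, and EDN2 came last at 6.22 ± 1.57 and 5.33 ± 1.11. Among the tested genes with a matched exon length, EDN1 thereby moved from percentile 69.1 to 91.2 per kilobase in wt-GR and from 69.9 to 90.8 in S134A-GR.

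The make-up of each pair followed from these levels. Per kilobase, EDN1 was 85.7 ± 1.66% of EDN1 plus EDN2 transcripts in wt-GR vehicle and 96.5 ± 0.614% in S134A-GR vehicle, and the libraries of the lines did not overlap. Under TGFβ1 it was 99.8% in both lines. The EDN1 to EDN2 ratio per kilobase was 6.06 ± 0.791 and 28.2 ± 5.31 under vehicle and 468 ± 125 and 497 ± 105 under TGFβ1. The TGFβ1 ratios divide by few EDN2 reads, 32 over the wt-GR group and 31 over the S134A-GR group. Single libraries ran from 378 to 611 in wt-GR and from 417 to 616 in S134A-GR. The ECE1 to ECE2 ratio was 29.2 ± 2.89 in wt-GR vehicle, 23.4 ± 0.493 in S134A-GR vehicle, 18.3 ± 0.471 in wt-GR TGFβ1 and 15.7 ± 0.737 in S134A-GR TGFβ1. The EDNRA to EDNRB ratio was 1.18 ± 0.168 in wt-GR vehicle and 2.10 ± 0.204 in wt-GR TGFβ1, without overlap, and 1.40 ± 0.181 and 1.70 ± 0.355 in S134A-GR, with overlap.

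**Figure D4:**
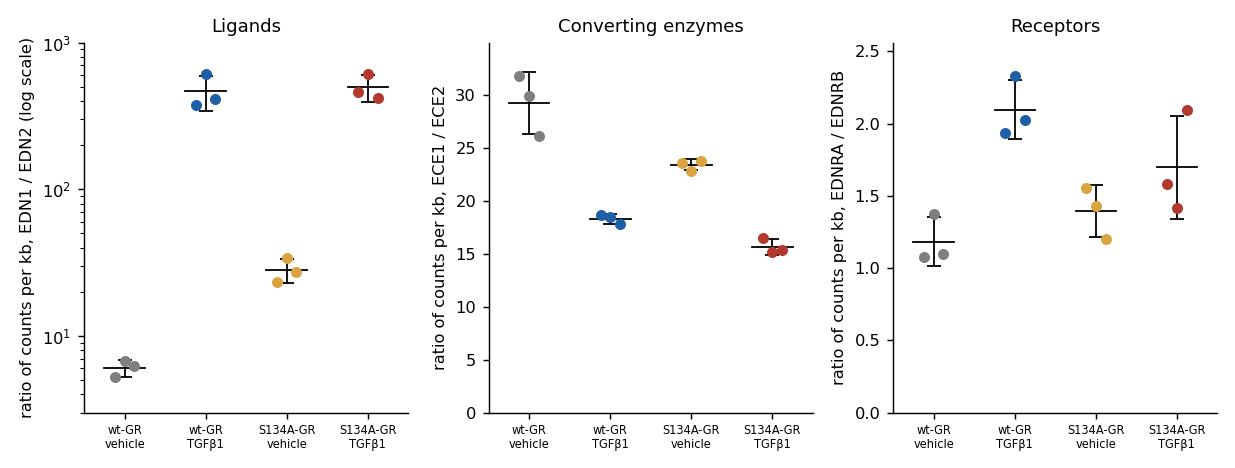
Ratios of normalized counts per kilobase within the ligand, enzyme and receptor pairs in each library, on a log axis for the ligands. Points are libraries, lines are means and bars are 1 SD (n = 3). The mean EDN1 to EDN2 ratio ran from 6.06 in wt-GR vehicle to 497 in S134A-GR TGFβ1, where it divides by few EDN2 reads.

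The rest of the pathway was described with a list of 49 genes, of which 45 were in the files and 43 were tested. EDN3, the third ligand gene, and the peptidase genes ECEL1, MMEL1 and KEL were not analysed here. MME, which encodes neprilysin, and CMA1, which encodes chymase, had too few reads to be tested, with at most 6 reads in any group. Between the lines, 21 of the 43 genes were lower and 7 higher in S134A-GR under vehicle, against 26.5% lower and 25.0% higher over all genes, with a median log2 difference of -0.22 against 0.02. Under TGFβ1 it was 21 lower and 6 higher, against 25.7% and 23.1% of all genes, with a median of -0.16 against 0.01. Under TGFβ1 8 rose and 6 fell in wt-GR, against 11.2% and 9.82% of all genes, and 7 rose and 10 fell in S134A-GR, against 10.0% and 8.69%, with medians of -0.01 and 0.00. The same shares stand behind the counts by role. The difference in response was called for 3 of the 43, all negative, against 0.414% of all genes called and 0.248% negative. The list was chosen with earlier results of these data known, so these shares are given for scale only.

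Among the propeptide proteases, FURIN, which can make the first cut in the endothelin precursors, rose under TGFβ1 and PCSK5, PCSK6 and PCSK7 were not called for it. FURIN averaged 17993.5 ± 189 (SD, n = 3) normalized counts under vehicle and 40914.5 ± 1351 under TGFβ1 in wt-GR, and 15416 ± 297 and 29091.5 ± 1139 in S134A-GR. The log2 rise was 1.18 (adjusted p = 2.61e-11) and 0.92 (adjusted p = 4.22e-10), and the responses differed by -0.27 (adjusted p = 0.0351). FURIN, PCSK5 and PCSK7 were lower in S134A-GR than in wt-GR under both treatments.

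Downstream of the receptors, 3 of the 4 phospholipase C beta genes were lower in S134A-GR under vehicle. The other, PLCB4, had 2 reads over wt-GR vehicle and 0 over S134A-GR vehicle, too few to judge a change. PLCB2 averaged 1225 ± 91.0 normalized counts in wt-GR vehicle and 89.3 ± 4.32 in S134A-GR vehicle, a log2 difference of -3.76 (adjusted p = 1.04e-08). PLCB1 averaged 2066 ± 208 and 633 ± 46.5, a log2 difference of -1.70 (adjusted p = 7.81e-10). Of the 8 G protein alpha genes, 5 were lower and 1 higher in S134A-GR under vehicle, and none of these differences exceeded 0.42 in size. Of the 3 genes for IP3 receptors 1 was lower, as were 2 of the 3 for protein kinase C, and of the 2 tested peptidase genes only CTSA, which encodes cathepsin A, was called, and was higher.

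Of the 10 desensitization genes, which encode G protein-coupled receptor kinases, arrestins and RGS proteins, 3 were higher and 3 lower in S134A-GR under vehicle. ARRB1, which encodes beta-arrestin 1, differed by -1.53 on the log2 scale under vehicle (adjusted p = 5.19e-11). GRK5, which encodes a receptor kinase, averaged 2983 ± 173 normalized counts under vehicle and 2456 ± 172 under TGFβ1 in wt-GR, and 5813 ± 185 and 3169.6 ± 113 in S134A-GR. Its log2 fall was -0.28 (adjusted p = 0.00237) and -0.87 (adjusted p = 6.75e-08), and the responses differed by -0.59 (adjusted p = 0.00717).

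Of 9 genes for transcription factors known to act on EDN1, 2 rose and 2 fell under TGFβ1 in wt-GR, while 2 rose and 3 fell in S134A-GR. JUN, an AP-1 subunit, rose by 0.50 (adjusted p = 1.40e-07) in wt-GR and 0.41 (adjusted p = 1.23e-06) in S134A-GR. SMAD3 fell by 0.37 (adjusted p = 9.07e-06) and by 0.27 (adjusted p = 0.000218). EPAS1, which encodes the hypoxia-inducible factor HIF-2α, averaged 10761 ± 406 normalized counts under vehicle and 17865 ± 106 under TGFβ1 in wt-GR, and 3242 ± 48.0 and 4183 ± 322 in S134A-GR, a rise in both (adjusted p = 7.91e-08 and 9.63e-05) with a difference in response of -0.37 (adjusted p = 0.0343). KLF2 was lower under TGFβ1 in both lines (log2 -0.50 in wt-GR and -0.76 in S134A-GR). Of the 3 differences in response, that of GRK5 was called on leaving out each of the 12 libraries in turn. That of EPAS1 was lost without any single one of 8 libraries, which were wt-GR vehicle 2, wt-GR TGFβ1 1, 2 and 3, S134A-GR vehicle 1, 2 and 3, and S134A-GR TGFβ1 2 (adjusted p = 0.0648 to 0.114). That of FURIN was lost without any of these or without wt-GR vehicle 1 or S134A-GR TGFβ1 3 (adjusted p = 0.054 to 0.126).

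**Figure D5:**
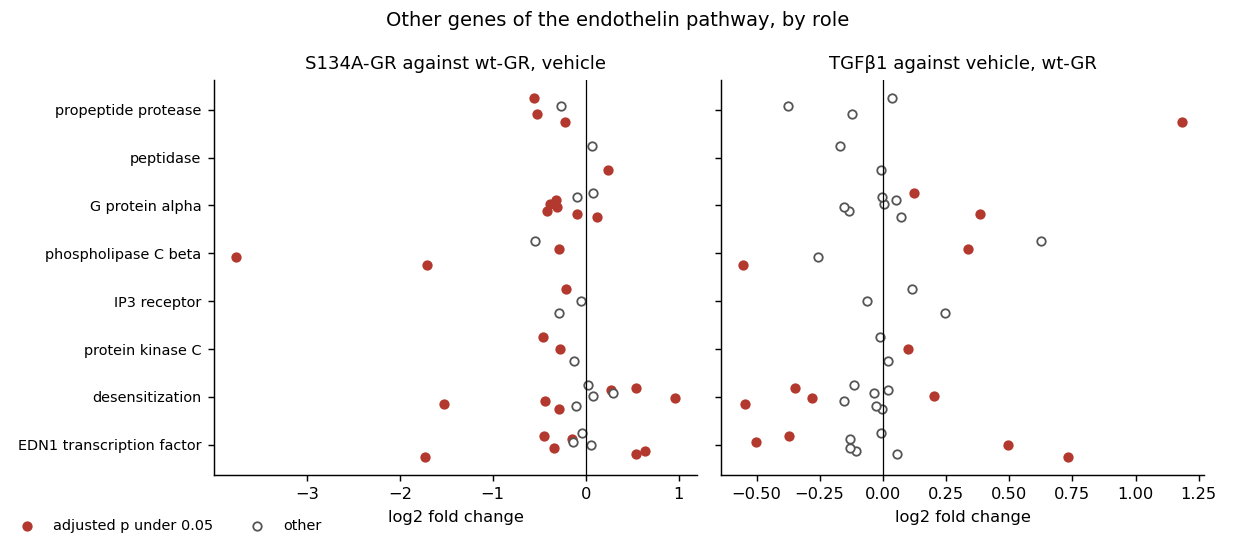
Log2 fold changes of the 43 tested pathway genes by role, for S134A-GR against wt-GR under vehicle (left) and TGFβ1 against vehicle in wt-GR (right). Points are genes, filled where the adjusted p was under 0.05. On the left 21 filled points lie below 0, with PLCB2 lowest at -3.76, and on the right FURIN is highest at 1.18.

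Markers of endothelial cells, the usual source of endothelin-1, were counted beside the EDN1 result. All 7 listed genes (PECAM1, CDH5, VWF, KDR, TEK, CLDN5 and TIE1) had reads in every group, and none was at 0 over a group. TIE1 and PECAM1 held most of the sum, with 2878 ± 99.6 and 1358 ± 83.8 normalized counts (SD, n = 3) in wt-GR vehicle and 1046 ± 35.9 and 1141 ± 54.0 in S134A-GR vehicle, while CLDN5 averaged at most 13.5 in any group. Their sum ranged from 4901 to 4952 normalized counts in wt-GR vehicle, 4425 to 4691 in wt-GR TGFβ1, 2619 to 2755 in S134A-GR vehicle and 2035 to 2332 in S134A-GR TGFβ1. The sum was lower under TGFβ1 in each line, but its genes did not move together. TEK rose with EDN1 in both lines (log2 1.70, adjusted p = 0.00144, and 1.66, adjusted p = 0.00194), whereas PECAM1 and VWF fell in both. CLDN5 fell in S134A-GR, from 11.7 to 3.57 normalized counts, the latter on 12 reads over the group and near the limit of detection. CDH5, KDR and TIE1 were not called under TGFβ1 in either line, and the part of these genes in the EDN1 result was not tested. The sum was lower in S134A-GR under both treatments, but here too its genes did not move together. Under vehicle, by limma, TIE1 (log2 -1.46, adjusted p = 9.68e-11), CDH5 (-3.28, adjusted p = 2.26e-07) and PECAM1 (-0.25, adjusted p = 0.0104) were lower in S134A-GR. VWF, KDR, TEK and CLDN5 were not called there. The part of these genes in the lower EDN2 of S134A-GR under vehicle was not tested. The sum of the smooth muscle genes DES and CNN1 was higher under TGFβ1, at 108 to 113 normalized counts under vehicle and 176 to 187 under TGFβ1 in wt-GR, and 73.0 to 123 and 144 to 164 in S134A-GR. CNN1 rose in both lines (log2 1.38, adjusted p = 0.000121, and 0.92, adjusted p = 0.0036), and its part in the EDN1 result was not tested. DES averaged 72.1 under vehicle and 84.1 under TGFβ1 in wt-GR (log2 0.21, adjusted p = 0.649), and 31.5 and 28.9 in S134A-GR. Under vehicle, DES was lower in S134A-GR than in wt-GR (log2 -1.24, adjusted p = 0.00115) and CNN1 was higher (0.83, adjusted p = 0.00219). MYH11, also on the smooth muscle list, was not analysed here.

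The genes whose pattern over the 12 libraries was most like each endothelin gene were found by Pearson's r of log2 values among 15333 genes. The libraries fall into the same 4 groups for every gene, which share size factors, so r describes a shared group pattern and nothing more. Genes with a pattern close to that of EDN1 included SEMA7A (r = 0.997) and AMIGO2 (0.996). EDN2 was most like CSF1 (0.982), PARP9 (0.974) and RARG (0.973). ECE1 was most like PROM2 (0.971), KIF13B (0.949) and PAPPA (0.942). ECE2 was most like ENG (0.991), which encodes the TGFβ co-receptor endoglin, CDR2L (0.988) and ACOX3 (0.987). EDNRA was most like KPNA2 (0.930), RAVER1 (0.906) and DFFA (0.903). For EDNRB, which was called in no comparison, the highest r was 0.841, with KLHL41, followed by CYP11A1 (0.828) and ZNF254 (0.801). EDN1 and EDN2 had an r of -0.88 with each other.

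The 10 tested genes nearest to each endothelin gene, 5 on each side, were compared with it. Over all genes, 11.2% rose and 9.82% fell under TGFβ1 in wt-GR, 10.0% rose and 8.69% fell in S134A-GR, 25.0% were higher and 26.5% lower in S134A-GR under vehicle, and 23.1% were higher and 25.7% lower under TGFβ1. Around EDN1, 5 of 10 neighbours rose and none fell under TGFβ1 in each line, among them NEDD9 (log2 2.58 in wt-GR and 3.82 in S134A-GR), ADTRP (1.52 and 1.32) and HIVEP1 (0.70 and 1.16). Around EDN2, under vehicle, 2 neighbours were higher and 3 lower in S134A-GR, with a range of -0.81 to 0.80 against -2.16 for EDN2. Around EDNRB, 8 of 10 were lower and none higher in S134A-GR under vehicle, with a median of -0.53, whereas EDNRB itself, at -0.22, was not called. Around EDNRA, 5 of 10 were higher and none lower in S134A-GR than in wt-GR under TGFβ1, with a median of 0.30, whereas EDNRA was at -0.53. Around ECE2, 6 of 10 were higher and none lower under vehicle, with a median of 0.23 against 0.40 for ECE2.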

How the data were processed

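RNA of the 12 libraries was sequenced in paired-end Illumina reads of 75 bases. Per the labels and the study's methods, the authors used Trimmomatic for trimming, HISAT2 for mapping to hg38, featureCounts for counts per gene and DESeq2 1.22.2 for size factors. The deposited values are that signal, normalized counts per gene symbol and library. The annotation, strand setting, counting of paired reads and other versions are not given in the sources used here. Dividing by a common step gave whole reads (within 0.001) for 100% of values. Genes with at least 10 reads over the 12 libraries were fitted with limma 3.58.1 (R 4.3.3) on log2 of the value plus 1, with 4 group means, a trend and Benjamini-Hochberg adjustment over 18579 genes, and called at an adjusted p under 0.05. With 3 against 3, an exact permutation test cannot go below 0.1. As alternatives edgeR 4.0.16 and DESeq2 1.42.0 were run on the recovered reads, and the pseudocount, scaling, filter, block and libraries were varied. Symbols were matched to GENCODE v44 for 18632 of 19907, of which 1108 by an older symbol, and per-kilobase levels used the union of exons. Named were all 6 endothelin genes, the 4 called pathway genes of largest change per comparison, JUN and SMAD3 among the transcription factors, the 3 genes most alike to each and the 5 tested neighbours on each side, as counts. A gene that this rule names is not reported here. JUN, SMAD3 and examples among neighbours and markers were picked after their values were seen. The endothelin genes and lists were chosen with earlier results of these data known. The fitting was tested on simulated data. Summed gene counts and limits of detection are in the results.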

Additional observations from a re-analysis of the deposited data

Results flagged for a closer look

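For 3 pathway genes the response to TGFβ1 differed between the lines by the test of the difference itself, S134A-GR minus wt-GR on the log2 scale. The pathway list was chosen with earlier results of these data known, which limits what these tests can show. GRK5 fell more in S134A-GR (-0.59, adjusted p = 0.00717 by limma). FURIN rose less in S134A-GR (-0.27, adjusted p = 0.0351), and so did EPAS1 (-0.37, adjusted p = 0.0343). By edgeR the adjusted p was 0.00486 for GRK5, 0.026 for FURIN and 0.0213 for EPAS1. On leaving out 1 of the 12 libraries at a time, the call was kept in 12 fits for GRK5 (adjusted p = 0.00587 to 0.0234), in 4 for EPAS1 (0.0122 to 0.114) and in 2 for FURIN (0.0306 to 0.126), and FURIN was also not called with a replicate block (adjusted p = 0.0522). EDN2 fell less in S134A-GR, by 1.97, which is a description and not a test, because EDN2 was chosen for this difference.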

How the results depend on the processing

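Of the values of single endothelin genes under the alternatives, 618 kept their direction and their side of the threshold, 22 were no longer past it, 1 newly passed it and 13 changed sign, all of them small and uncalled. Of the counts of called genes, 291 stayed within 1.5 times and 36 did not. The number of endothelin genes with a called difference in response was 0 with a pseudocount of 0.5, 0 with no filter beyond 1 read, and 0 to 0 on leaving out 1 library. For S134A-GR against wt-GR under TGFβ1 it was 1 to 2 on leaving out 1 library. For the pathway list the count of called differences in response was 1 to 3, and over all genes it was 22 to 166 on leaving out 1 library and 211 by DESeq2, against 77 by limma, 78 by edgeR and 1728 at an unadjusted p under 0.05. On leaving out 1 library, sign changes lay within these log2 ranges: EDN1 lines under vehicle -0.0494 to 0.0798, EDNRA lines under vehicle -0.0847 to 0.0774, ECE1 difference in response -0.0837 to 0.0037, EDNRB difference in response -0.17 to 0.22 and EDNRB under TGFβ1 in S134A-GR -0.29 to 0.0858.

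Same-numbered libraries did not deviate together. Over 15333 genes their mean correlation was 0.0131 (range -0.0465 to 0.0951 over 18 pairs), so the numbers give no pairing. With a replicate block the endothelin counts were 2, 2, 5, 4 and 1, as without it, and 58 genes were called for the difference in response.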
